A study of Ovis aries and Mus musculus with 10 samples.

Results

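The miR-29 family was followed through mammary gland from sheep and from mice of CD1, an outbred laboratory stock. Its members were taken as the 3 mouse miRNAs that the array names mmu-miR-29a, mmu-miR-29b and mmu-miR-29c (miR-29a, miR-29b and miR-29c from here on), out of 567 mouse miRNAs on the array, and each was detected on all 10 arrays. The 5 sheep arrays held gland from ewes at day 15 of the cycle, from gestation days 14, 64 and 125, and from lactation day 60. The 5 mouse arrays held gland from virgins, from gestation days 10 and 17, and from lactation days 2 and 10. Each stage and day had 1 array, no treatment was given per the labels, and ages, sheep breed and the number of animals behind an RNA sample were not given in the sources used here. The arrays carry mouse probes, so a sheep value also depends on how well the sheep miRNA pairs with a mouse probe.

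miRNAs are short RNAs that pair through their seed, the bases near their 5′ end, with messenger RNAs and lower their translation and stability. The miR-29 members share a seed and are known in many tissues for targeting messages of collagens, elastin and other matrix proteins, and of the DNA methyltransferases DNMT3A and DNMT3B. In the mouse they come from a pair of gene clusters, with miR-29a and a copy of miR-29b on chromosome 6, and another copy of miR-29b and miR-29c on chromosome 1. The mammary gland turns during gestation and lactation from a stroma-rich tissue into a mostly epithelial one. The array measures miRNAs only, so collagens and other targets of the family were not measured.

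Each member was read by a pair of probes, 10 spots each, which are annotated to overlapping targets in the mm9 mouse build. The miR-29a probes were annotated to chr6:31012673-31012691 and chr6:31012673-31012692. The miR-29b probes were annotated to chr1:196863288-196863307 and chr1:196863287-196863307, and those of miR-29c to chr1:196863795-196863815 and chr1:196863794-196863815. The miR-29b and miR-29c targets lay 486 bases apart. The strand made from the other arm of the miR-29b hairpin, miR-29b*, was annotated instead on chromosome 6, 374 bases from miR-29a. Signal from the miR-29b copies of the clusters therefore fell on the same miR-29b probes and could not be separated. No probe sequences were available here, so whether the probes of a member also read another member was not checked.

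Levels are given as log2 scaled signal. A value of 0 equals the array's own 75th percentile over the 94 miRNAs that every array detected. That percentile was between 788.5 and 1998 signal units on the sheep arrays and between 245.6 and 936.6 on the mouse arrays. The software called 156 to 208 miRNAs detected on a sheep array and 125 to 198 on a mouse array. Mouse virgin and mouse gestation day 10 shared slide 2, and the other 8 arrays were on slide 1. Fluorescence differs between probes for reasons other than abundance, so each miRNA is compared across arrays and not with another miRNA on the same array.

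In sheep gland the 3 members followed the same course up to late gestation. miR-29a had log2 scaled signals of 0.85 in cycle and 0.90 in lactation, with 1.31, 1.83 and -0.36 between them on days 14, 64 and 125 of gestation. miR-29b had -0.61 in cycle, -0.09, 0.23 and -2.69 at the same gestation days, and -0.67 in lactation. miR-29c had -0.58 in cycle, -0.12, 0.34 and -1.75 in gestation, and 0.54 in lactation. With this scaling, in each member the gestation day 64 array was above the cycle and day 14 arrays, and the day 125 array was the lowest of the 5 sheep arrays. In lactation miR-29a and miR-29b lay near their cycle level with this scaling, while miR-29c stood above each earlier sheep array.

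**Figure D1:**
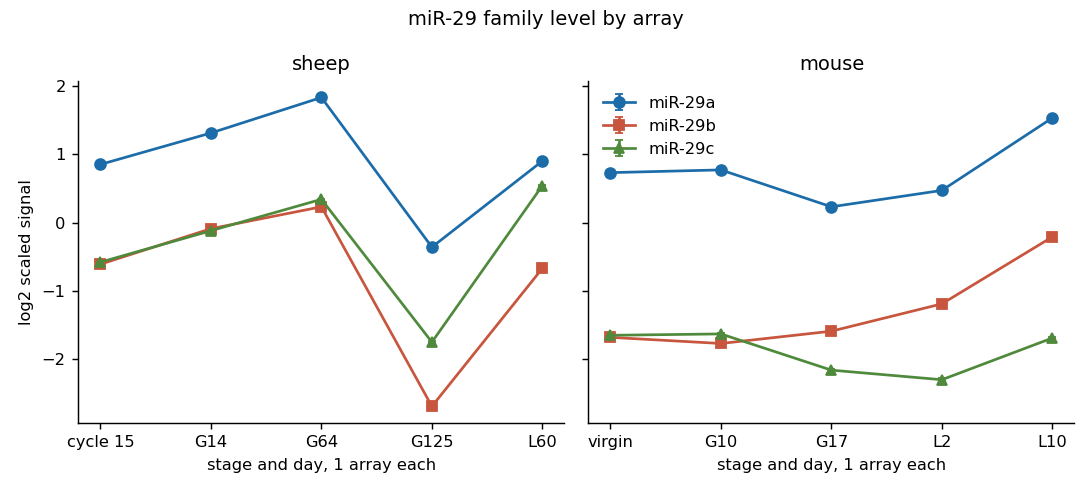
Log2 scaled signal (vertical axis) of miR-29a, miR-29b and miR-29c on each array in stage order (horizontal axis), sheep at left and mouse at right, 1 array per point; G is gestation and L lactation, with the day. Bars, smaller than the symbols, are the SE between spots, 0.007 to 0.024. All 3 members are lowest in sheep at gestation day 125 (-0.36, -2.69 and -1.75), and in mouse, with this scaling, miR-29a and miR-29b are highest at lactation day 10 (1.53 and -0.21).

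All 3 members were much lower at sheep gestation day 125 than at day 64. On the unscaled arrays miR-29a had a signal of 731.8 at day 125 and 5560 at day 64, miR-29b had 145.9 at day 125 and 1825 at day 64, and miR-29c had 279.0 at day 125 and 1978 at day 64. After scaling, miR-29a was 4.57-fold lower at day 125 than at day 64, miR-29b 7.53-fold lower and miR-29c 4.27-fold lower, which are log2 differences of -2.19, -2.91 and -2.09. Late gestation therefore separated from mid gestation in each member, and most in miR-29b. Ranked among the 213 miRNAs tested, from the largest decrease, these steps were 11th for miR-29a, 5th for miR-29b and 14th for miR-29c. A decrease of more than 1 on the log2 scale was seen in 15.0% of the 213 miRNAs in that step, and an increase of more than 1 in 13.6%. The dip was named when the members were chosen and rests on 1 array on each side, so it is a description with no test.

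The size of the dip depended on how arrays were scaled. In the authors' deposited table, whose constant for each array has no stated basis, the differences between day 125 and day 64 were -0.99 for miR-29a, -1.71 for miR-29b and -0.89 for miR-29c. Against gestation day 14, the day 125 array differed by -1.67, -2.60 and -1.63 for miR-29a, miR-29b and miR-29c with the scaling used here, and by -0.30, -1.35 and -0.38 in the authors' deposited table. Against the cycle array the day 125 differences were -1.21, -2.08 and -1.17 here, and -0.78, -1.65 and -0.75 in the authors' deposited table. The direction was the same for each member against each of these arrays, and the day 14 comparison kept least of its size.

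The day 125 array also differed from the day 64 array in its overall signal, with a 75th percentile of 939.1 against 1561 and 156 against 208 detected miRNAs. The lactation array had a lower percentile still, 788.5, and also 156 detected miRNAs, and there the members were higher again. The part of overall signal in the dip was not tested.

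Each probe of a member showed the dip. The log2 differences between day 125 and day 64 were -2.36 for the shorter and -2.16 for the longer miR-29a probe, and -2.13 and -2.06 for the shorter and longer miR-29c probes. The longer miR-29b probe differed by -2.90. The shorter miR-29b probe had 0 of 10 spots well above background at day 125, so its signal there is only a bound, and it was at least 5.32-fold lower at day 125 than at day 64. The probes of a member thus had the same direction in that step.

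**Figure D2:**
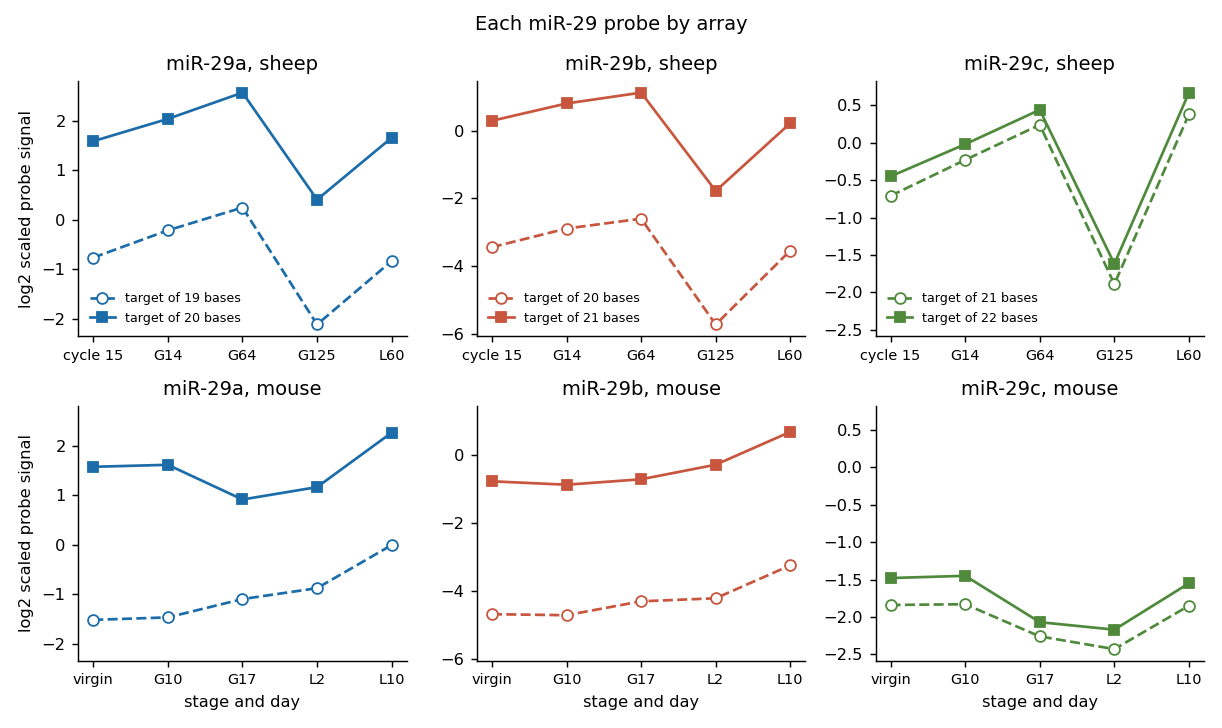
Log2 scaled signal of each probe (vertical axis) by array in stage order (horizontal axis), for miR-29a, miR-29b and miR-29c from left to right, sheep above and mouse below; open circles are the shorter target and filled squares the longer. Probes of a member run in parallel in sheep, with the shorter miR-29b probe not well above background at day 125, while the miR-29a probes in mouse differ in direction between gestation days 10 and 17 (0.38 for the shorter and -0.70 for the longer).

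In sheep the members were higher at lactation day 60 than at gestation day 125. miR-29a was 2.39-fold higher in lactation, miR-29b 4.04-fold and miR-29c 4.88-fold, which are log2 differences of 1.26, 2.01 and 2.29. Only 3.76% of the 213 miRNAs, 8 in all, were higher by more than 1 on the log2 scale in that step, and the members ranked 8th, 4th and 3rd from the largest increase. The return was also named when the members were chosen and has 1 array on each side.

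The extent of the return differed among the members. Set against the cycle array, the lactation array differed by 0.05 for miR-29a, -0.06 for miR-29b and 1.11 for miR-29c. Set against the day 64 array, it differed by -0.93 for miR-29a, -0.90 for miR-29b and 0.19 for miR-29c. In the authors' deposited table the differences of lactation from day 64 were 0.12 for miR-29a, 0.16 for miR-29b and 1.25 for miR-29c, so miR-29a and miR-29b turned sign there. The differences with this scaling were 0.45 to 0.52 between gestation day 14 and cycle, and 0.32 to 0.52 between gestation days 64 and 14. In the authors' deposited table day 14 minus cycle was -0.48, -0.30 and -0.37 for miR-29a, miR-29b and miR-29c, the opposite sign in each member. The median of all miRNAs tested was -0.20 in that step there.

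Mouse gland followed a different course with this scaling. miR-29a had log2 scaled signals of 0.73 in virgin gland, then 0.77 on day 10 and 0.23 on day 17 of gestation, then 0.47 on day 2 and 1.53 on day 10 of lactation. miR-29b had -1.68 in virgin gland, -1.77 and -1.59 in gestation, and -1.19 and -0.21 in lactation. miR-29c had -1.65 in virgin gland, -1.63 and -2.16 in gestation, and -2.30 and -1.69 in lactation. With this scaling lactation day 10 was the highest mouse array for miR-29a and miR-29b, whereas miR-29c was lower at gestation day 17 and lactation day 2 than on the other 3 mouse arrays. For miR-29a that order turned in the authors' deposited table, where lactation day 10 minus virgin gland was -0.20 (median of all miRNAs -0.21). It also turned without scaling, with -0.48 (median -0.35). Unscaled miR-29b was highest at gestation day 17, at 310.2 against 211.7 at lactation day 10. Unscaled miR-29c was lowest at lactation day 10, at 76.04, and at gestation day 17 stood above virgin gland (209.0 against 190.6). In the authors' deposited table gestation day 17 was the lowest mouse array for each member. There day 17 minus day 10 was -1.82, -1.10 and -1.81 for miR-29a, miR-29b and miR-29c (median -0.34).

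The lactation days differed from each other in mouse. miR-29a was 2.08-fold higher at lactation day 10 than at day 2, miR-29b 1.97-fold and miR-29c 1.52-fold, which are log2 differences of 1.06, 0.98 and 0.60, and without scaling the miR-29c difference was -0.08. In that step 4.23% of the 213 miRNAs were higher by more than 1 on the log2 scale, and the members ranked 8th, 10th and 22nd from the largest increase. Between gestation day 10 and virgin gland the members differed by 0.04, -0.09 and 0.02 with this scaling. In the authors' deposited table they differed by -0.82, -0.95 and -0.84, where the median of all miRNAs tested was -0.36.

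The miR-29a probes disagreed in mouse between the arrays of slide 2 and those of slide 1. Slide 2 held only virgin gland and gestation day 10, so slide and stage cannot be told apart there. The longer miR-29a probe exceeded the shorter by 8.52-fold and 8.47-fold on the 2 mouse arrays of slide 2, and by 4.02, 4.11 and 4.83-fold on the 3 mouse arrays of slide 1. On the sheep arrays, all on slide 1, the ratio was between 4.74 and 5.73. Across slides the miR-29a value therefore changed with the probe, and lactation day 10 minus virgin gland was 1.51 by the shorter probe and 0.69 by the longer. For miR-29c the ratio was 1.28 and 1.30 on slide 2 and 1.14 to 1.24 on the mouse arrays of slide 1. For miR-29b, whose shorter probe had 4 to 10 of 10 mouse spots well above background, it was 15.1 and 14.5 on slide 2 and 12.2 to 15.4 on slide 1.

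Among all 10 arrays, with this scaling, sheep gestation day 64 had the highest miR-29a and miR-29b, and sheep lactation day 60 the highest miR-29c. With the same scaling the lowest miR-29a and miR-29b were at sheep gestation day 125, whereas the lowest miR-29c was at mouse lactation day 2. In the authors' deposited table mouse gestation day 17 was the lowest array for each member. Neighbours in the order of levels were compared with the residual SD of the fit to species and stage class, which was 0.76 for miR-29a, 1.00 for miR-29b and 0.76 for miR-29c. None of the 9 gaps exceeded that SD for miR-29a or miR-29b (0 of 9 each). For miR-29c 1 of 9 did, a gap of 1.05 between sheep cycle at -0.58 and mouse gestation day 10 at -1.63. Gaps between sorted neighbours are small by construction, and that SD also holds the sheep day 125 dip. The counts therefore say nothing about arrays further apart in the order.

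Whether the members differ between the species was tested with limma, in a model of all 213 miRNAs that held terms for the species and for 3 classes of stage, namely not pregnant, gestation and lactation. miR-29c had log2 scaled signals of -1.75 to 0.54 in sheep, against -2.30 to -1.63 in mouse, and the groups overlapped only through the sheep day 125 array. It averaged -0.31 ± 0.91 in sheep and -1.89 ± 0.32 in mouse (SD, n = 5 arrays each), and the fitted difference was 1.64 ± 0.48 (SE), or 3.12-fold higher in sheep, with a 95% confidence interval of 0.50 to 2.79. This did not pass the threshold of 0.05 (adjusted p = 0.0541, limma with Benjamini-Hochberg adjustment). Of the 213 miRNAs, 46 or 21.6% passed in this comparison, and 0 of the 3 members did.

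miR-29a averaged 0.91 ± 0.81 in sheep and 0.75 ± 0.49 in mouse (SD, n = 5 each), a fitted difference of 0.21 ± 0.47 (limma adjusted p = 0.798). miR-29b averaged -0.77 ± 1.14 in sheep and -1.29 ± 0.64 in mouse (SD, n = 5 each), a fitted difference of 0.66 ± 0.62 (limma adjusted p = 0.492). The species overlapped in both miRNAs, and the 95% intervals of -0.93 to 1.35 and -0.84 to 2.16 leave room for differences of either sign. The miR-29c call turned on the settings: without the sheep gestation day 125 array its difference was 1.95 (limma adjusted p = 0.00736), and with slide 1 alone it was 2.07 (limma adjusted p = 0.135). How far the sheep miRNA pairs with the mouse probes cannot be told apart from the species.

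Lactating gland was compared with gland that was not pregnant over both species, with 3 and 2 arrays. miR-29a had 0.90 in sheep and 0.47 and 1.53 in mouse lactation, against 0.85 in sheep cycle and 0.73 in virgin mouse gland. miR-29c averaged -1.15 ± 1.49 in lactation and -1.11 ± 0.76 in gland that was not pregnant (SD, n = 3 and n = 2 arrays), before the species term. The groups overlapped in each member. The fitted differences were 0.22 ± 0.67 for miR-29a, 0.56 ± 0.88 for miR-29b and 0.24 ± 0.68 for miR-29c (limma adjusted p = 1, 0.879 and 0.995). The model gave both species 1 shared difference, so it cannot show changes of opposite sign. For miR-29c, sheep lactation minus cycle was 1.11, while mouse lactation days 2 and 10 minus virgin gland were -0.65 and -0.04. In this comparison 8 of the 213 miRNAs passed, or 3.76%, and 0 of the 3 members. The 95% interval of miR-29b was -1.56 to 2.68, so a change of several-fold in either direction was within the error. The sign of the miR-29a and miR-29c differences turned with quantile normalization (-0.19 and -0.01).

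Within mouse, lactation was compared with gestation, with 2 arrays each. miR-29b had -1.19 and -0.21 in lactation, against -1.77 and -1.59 in gestation. Its difference was 0.98 ± 0.46 (limma adjusted p = 0.51), that of miR-29a was 0.50 ± 0.55 (limma adjusted p = 0.768), and that of miR-29c was -0.10 ± 0.37 (limma adjusted p = 1). No miRNA passed in this comparison (0 of 213 with limma, 0%), while 19 had an unadjusted p under 0.05, and other settings called 0 to 18. The model left 2 residual degrees of freedom, and the 95% interval of miR-29b was -0.72 to 2.68.

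**Figure D3:**
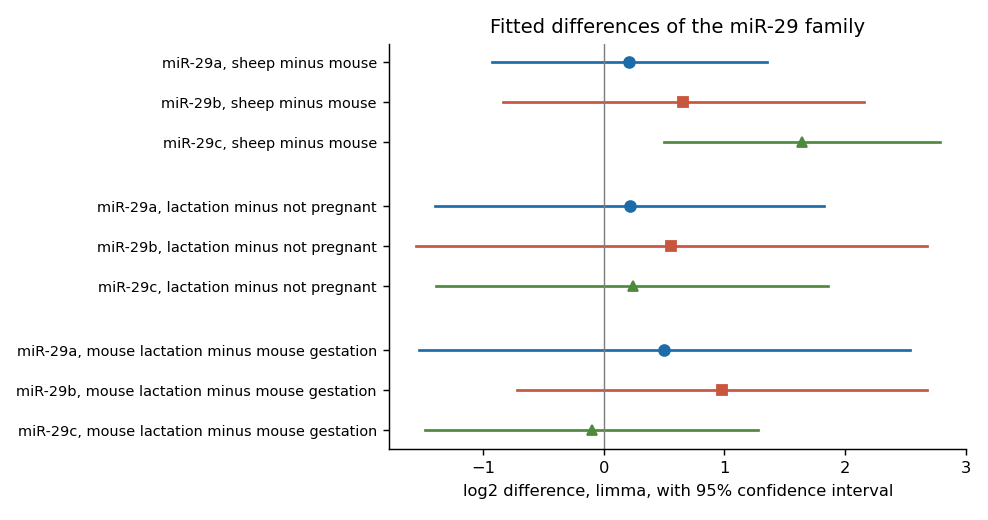
Fitted log2 differences (horizontal axis) of each member in the 3 comparisons tested with limma, with 95% confidence intervals as bars. The miR-29c difference between sheep and mouse, 1.64, is the only 1 of the 9 whose interval (0.50 to 2.79) lies wholly on 1 side of 0, and its adjusted p is 0.0541.

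Within an array, the signal of miR-29c relative to miR-29a is free of the scaling between arrays. The log2 ratio of miR-29c to miR-29a was -1.42 in sheep cycle, then -1.44, -1.49 and -1.39 on days 14, 64 and 125 of gestation, then -0.36 in lactation. In mouse it was -2.38 in virgin gland, -2.40 and -2.39 in gestation, and -2.77 and -3.22 in lactation. Averaged over probes, the ratio was higher in lactating sheep gland than on the earlier sheep arrays, and lower in lactating mouse gland than on the earlier mouse arrays. Lactation minus gestation averaged 1.08 in sheep (1.03 to 1.13 over 3 pairs of arrays) and -0.60 in mouse (-0.83 to -0.37 over 4 pairs).

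The opposite course of this ratio was noticed in these values and was not tested. Lactation was sampled at day 60 in sheep and at days 2 and 10 in mouse, so species and day of lactation cannot be told apart. Lactation minus gestation was 1.16 in sheep and -0.93 in mouse by the shorter probes, and 1.08 in sheep and -0.55 in mouse by the longer. By the shorter probes the mouse ratio was already lower before lactation, at -1.17 on gestation day 17 against -0.36 on gestation day 10, which was on the other slide, and then -1.55 and -1.84 in lactation. With normexp background correction the sheep value was 1.01 and the mouse value -0.20, and 1 of the 4 mouse pairs of arrays turned upward. The ratio of miR-29b to miR-29a was -2.33 at sheep day 125 against -1.61 at day 64. In mouse it was -1.82 at gestation day 17 against -2.54 at gestation day 10, but these arrays were on different slides and the shorter probes of miR-29b and miR-29a differed alike, by 0.41 and 0.38, against 0.16 and -0.70 for the longer probes.

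**Figure D4:**
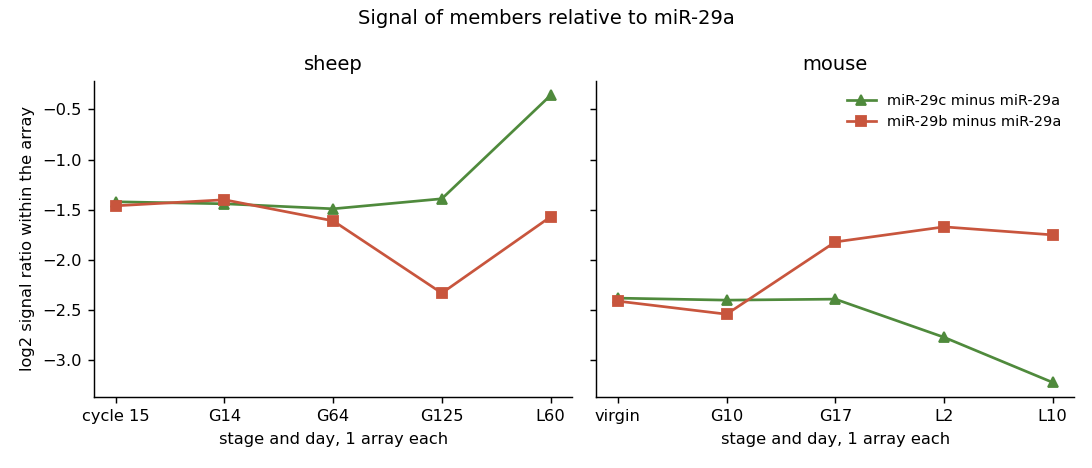
Log2 signal ratio within an array (vertical axis) of miR-29c (triangles) and miR-29b (squares) to miR-29a, by stage and day (horizontal axis), sheep at left and mouse at right. The miR-29c ratio stays between -1.49 and -1.39 in sheep before lactation and is -0.36 in lactation, and it is lowest in mouse at lactation day 10, at -3.22.

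The strands from the other arm of the hairpins, marked with an asterisk, are usually less abundant products of the same precursors. miR-29c* was detected on 5 of 5 sheep arrays and 0 of 5 mouse arrays. Its longer probe had signals of 99.0 in sheep cycle, then 109.9, 138.9 and 29.96 on days 14, 64 and 125 of gestation, then 63.39 in lactation. miR-29c* thus had its sheep minimum at day 125, as miR-29c did, and by that probe day 125 differed from day 64 by -1.48 and lactation from day 125 by 1.33 on the log2 scale. At day 125 only 6 of 10 spots of the longer probe were well above background, and 0 of 10 of the shorter. The sizes of these differences therefore rest on a value near background.

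On the mouse arrays the longer miR-29c* probe was not well above background, at scaled signals of 0.00676 to 0.0111. From the mean of the sheep signals and of the mouse bounds, it was at least 1.11-fold higher in sheep. For the shorter probe that bound was 0.334-fold, so that probe could not show an excess in sheep. With both probes averaged, miR-29c* lay at the floor on each mouse array, and its fitted sheep minus mouse difference was 0.54 ± 0.22 (limma adjusted p = 0.129). miR-29a* was detected on 1 sheep array and miR-29b* on 2, and neither on a mouse array (0 of 5 each). Those strands were not tested.

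Members were also compared with each other and with other miRNAs across the 10 arrays, after the mean of each species was subtracted. The correlation was 0.928 between miR-29a and miR-29b, 0.799 between miR-29a and miR-29c, and 0.718 between miR-29b and miR-29c. Over the 5 arrays of a species, miR-29b and miR-29c had a correlation of 0.864 in sheep and 0.048 in mouse. These are descriptions over arrays that share their scaling, and in sheep the day 125 array weighs on each of them. How far the probes of a member also read another member was not checked.

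Among the other 91 miRNAs detected on all 10 arrays, miR-152, which is known to target DNMT1, was most like miR-29a (r = 0.903), followed by miR-101a (0.841) and miR-296-5p (0.811). miR-101a, known to target the histone methyltransferase EZH2, was most like miR-29b (0.846), followed by miR-296-5p (0.781) and miR-152 (0.773). The likeness of miR-296-5p rests partly on floored values, as it lay at the floor in sheep cycle and at sheep gestation day 125. miR-29c had weaker likeness, to miR-140 (0.640), miR-140* (0.601) and miR-152 (0.601). miR-101a had log2 scaled signals of -1.66 in sheep cycle, -1.62, -0.51 and -2.55 in gestation and -1.97 in lactation. Its sheep minimum was also at day 125, but its return in lactation was smaller. It was picked by correlation with the members, on which that array weighs, so the shared minimum is no separate result.

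Other miRNAs linked with matrix and fibrosis differed among themselves in the late gestation step. From a list of 13, chosen from general knowledge, 12 were tested, of which 5 are also stromal markers and miR-200b an epithelial one. Their median log2 difference between sheep day 125 and day 64 was -0.50, against 0 over all miRNAs tested, with 4 lower and 1 higher by more than 1, where 15.0% of the 213 were lower and 13.6% higher by that much. Those lower were miR-26a (-1.84), miR-143 (-1.14), miR-145 (-2.82, to the floor of the scale) and miR-199a-5p (-2.43), and the higher was the epithelial miR-200b (2.17). In lactation minus day 125 the list's median was -0.07, with 2 lower and 0 higher by more than 1, where 10.8% of the 213 were lower and 3.76% higher by that much.

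In the tested comparisons, miR-26a of that list was higher in sheep than in mouse (1.39 ± 0.35, limma adjusted p = 0.0319), and the other 11 did not pass, with a list median of 0.40. The miR-26a call was kept in 8 of 12 alternatives, and with slide 1 alone its adjusted p was 0.236 (limma). Over all 213 miRNAs 8.45% were higher in sheep by that test. In lactation against not pregnant, miR-199b (-2.57 ± 0.49) and miR-214 (-2.99 ± 0.58), both known from fibroblasts and expressed together in fibrotic tissue, were lower (limma adjusted p = 0.0434 each). miR-214 lay at the floor on 2 of the 3 lactation arrays, so its difference depends on the floor. The miR-199b call was kept in 5 of 12 alternatives and the miR-214 call in 4 of 12, with limma adjusted p up to 0.217 and 0.212. The other 10 did not pass, and the median was -0.03, where 2.82% of the 213 passed as lower in lactation. In mouse lactation against gestation 0 of 12 passed, with a median of -0.31.

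Marker miRNAs of the cell types in the gland also differed in these steps. The 5 epithelial markers of the miR-200 family, detected on all arrays, averaged -0.47 in sheep cycle, then -0.73, -1.47 and 0.75 on days 14, 64 and 125 of gestation, then 0.40 in lactation, as log2 scaled signal. The 5 fibroblast and smooth muscle markers on the array, of 6 listed, averaged -1.63 in sheep cycle, -1.45, -1.29 and -2.77 in gestation, and -3.21 in lactation. At day 125, where the members were lowest, the epithelial average was above and the stromal average below that of each earlier sheep array. In lactation, where the members were higher again, both averages still stood on the same sides of the arrays before day 125. The stromal markers split in that step. Lactation minus day 125 was 0.38 for miR-143 and 0.81 for miR-145, which lay at the floor at day 125. It was -0.87 for miR-199a-5p, -1.06 for miR-199b and -1.47 for miR-214, which reached the floor in lactation.

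In mouse the epithelial markers averaged -1.73 in virgin gland, -1.02 and 0.15 in gestation, and 0.89 and 1.23 in lactation. The fibroblast and smooth muscle markers averaged -2.09, -1.94, -2.31, -3.30 and -3.76 over the same arrays. On average the mouse lactation arrays thus had more epithelial and less stromal signal than the gestation arrays. No miR-29 member passed the test between those groups. The stromal markers were not alike: miR-143 differed by -0.10, against -2.29 for miR-199a-5p, -2.07 for miR-199b and -2.05 for miR-214, none passing. The stromal average held 1 marker at the floor at lactation day 2 and 2 at lactation day 10. The part of the makeup of the tissue in the miR-29 levels was not tested. In whole gland, fewer cells of a type and less RNA per cell cannot be told apart.

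**Figure D5:**
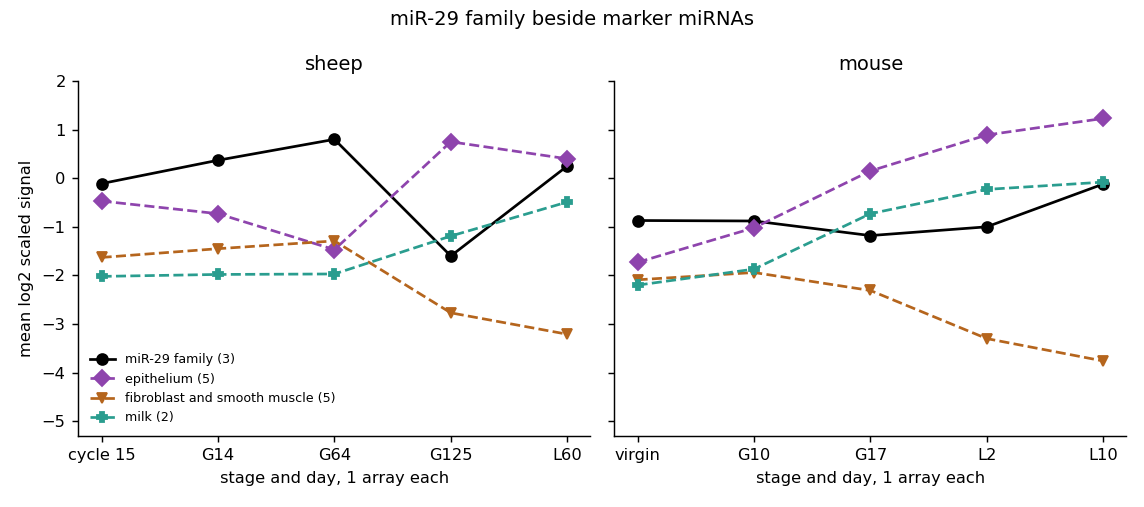
Mean log2 scaled signal (vertical axis) of the miR-29 family and of 3 marker lists, with the number of miRNAs in brackets, by stage and day (horizontal axis), sheep at left and mouse at right. Lines are to be followed across arrays and not set against each other; between sheep days 64 and 125 the epithelial line is higher at day 125 (0.75 against -1.47) and the miR-29 line lower (-1.60 against 0.80).

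Summed over each list as scaled signal, epithelial markers spanned 2.92 to 11.4 in sheep and 1.68 to 14.1 in mouse, and fibroblast and smooth muscle markers 0.832 to 3.00 in sheep and 0.659 to 2.97 in mouse. The milk-abundant miR-148a and miR-30d summed to 0.507 to 2.86 in sheep and 0.455 to 4.47 in mouse, highest in lactation in each. Epithelial and milk-abundant miRNAs, the markers of the labelled tissue, were thus detected on each array. The 2 endothelial markers spanned 1.13 to 2.58 in sheep and 1.41 to 2.22 in mouse, and the 5 leukocyte markers 0.238 to 1.09 in sheep and 0.304 to 0.609 in mouse. The 3 red cell markers spanned 0.151 to 0.620 in sheep and 1.72 to 5.97 in mouse. Red cell markers were thus higher on each mouse array than on any sheep array. The 4 striated muscle markers summed to 1.94 in virgin mouse gland and 0.753 at mouse gestation day 17, and to 0.0109 to 0.0926 on the other 8 arrays. All 4 were at the floor of the scale on 6 arrays, among them sheep gestation day 125.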

How the data were processed

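The deposited scanner files hold probe intensities on a linear scale and 0 or 1 flags (unit other) from Agilent Feature Extraction, version 10.5.1.1 per the file headers and 9.5 per the submitters' processing notes; the processed signal is background-subtracted. The authors' value table is an intensity too: it equalled total miRNA signal times 1 constant per array, within 0.1% for 98.65 to 100% of miRNAs with signal above 50. The medians of its columns were -0.603, 0.303, 0.26, -3.94 and -2.80 for sheep and -11.4, -5.23, 0.76, -2.35 and -11.6 for mouse in stage order; the basis of the constants stays unknown.

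Processed signals were averaged over spots not marked as outliers, then over probes, scaled to each array's 75th percentile over the 94 miRNAs that every array detected, floored at 0.029 (log2 -5.11) and put on the log2 scale. The 213 miRNAs detected on at least 3 arrays were fitted with limma 3.58.1 (lmFit, eBayes) in R 4.3.3, with Benjamini-Hochberg adjustment at 0.05; the script was tested on simulated data. Of the 213, 28 lay at the floor on all arrays. No member spot was saturated. The number of arrays limits the precision, the spread comes from days within a class, and it may hold technical variation, since nothing says which arrays came from separate animals.

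The members, lists and comparisons were chosen with earlier results of these data known. Named miRNAs were the members, their star strands, the 3 miRNAs with the highest correlation to each member, and the matrix and marker lists; miR-199a-3p of the lists was not found by that name. Alternatives changed scaling, background, probe summary, floor, filter, slide and arrays.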

Additional observations from a re-analysis of the deposited data

Results flagged for a closer look

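The ratio of miR-29c to the other members changed in opposite directions in the lactating gland of sheep and mouse. On the log2 scale, lactation minus gestation for miR-29c relative to miR-29a averaged 1.08 in sheep, upward in 3 of 3 pairs of arrays, and -0.60 in mouse, upward in 0 of 4. For miR-29c relative to miR-29b it averaged 0.87 in sheep, upward in 3 of 3 pairs, and -1.08 in mouse, upward in 0 of 4. The pairs share arrays, as sheep had 1 lactation array, of day 60, and mouse had 2, of days 2 and 10. Species and day of lactation therefore cannot be told apart, and the difference between the species was not tested. By the shorter probes much of the mouse difference already lay between gestation day 10 on slide 2 (-0.36) and gestation day 17 on slide 1 (-1.17), ahead of -1.55 and -1.84 in lactation, and with normexp the mouse average was -0.20, upward in 1 of 4 pairs.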

How the results depend on the processing

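No paired analysis was possible because no label numbers an animal across arrays. The day 125 dip and the return in lactation kept their direction in each member under the alternatives run, with sizes moved by more than the residual SD only in the authors' deposited table for the dip (-0.99, -1.71 and -0.89 for miR-29a, miR-29b and miR-29c). The sheep minus mouse difference of miR-29c, with a limma adjusted p of 0.0541, passed the threshold in 6 of 12 alternatives. These were the percentile over all miRNAs (1.90, adjusted p = 0.0478), quantile normalization (1.81, 0.0322), no scaling (2.78, 0.0131), normexp (1.30, 0.00468), a floor 4 times lower (1.64, 0.0213) and always-floored miRNAs left out (1.64, 0.0287). The largest adjusted p was 0.206, in the authors' table. No scaling shifted the median of all miRNAs by 0.69 and normexp by -0.46.

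Lactation minus not pregnant turned sign with quantile normalization in miR-29a (-0.19) and miR-29c (-0.01), without scaling in miR-29a, miR-29b and miR-29c (-0.96, -0.62 and -0.94, all miRNAs -0.78), and in the authors' table (-0.42, -0.07 and -0.40, all miRNAs -0.20). Mouse lactation minus gestation turned sign without scaling in miR-29a (-0.88) and miR-29b (-0.40), and miR-29c then passed (-1.48, limma adjusted p = 0.0295, all miRNAs -0.68). It turned sign for miR-29c with normexp (0.21, all miRNAs 0.74), the authors' table (0.05), the brightest probe (0.06), and slide as a term or slide 1 alone (0.17 each). The cause was not tested.

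Leaving out 1 array at a time, sheep minus mouse ranged over -0.02 to 0.49 for miR-29a, 0.39 to 1.06 for miR-29b and 1.29 to 1.95 for miR-29c, with the lowest miR-29a value without sheep gestation day 64. Only without sheep gestation day 125 did miR-29c pass (limma adjusted p = 0.00736, up to 0.178 without sheep lactation). Lactation minus not pregnant ranged over -0.10 to 0.43, 0.21 to 0.89 and -0.23 to 0.62 for miR-29a, miR-29b and miR-29c, turning sign without mouse lactation day 10 for miR-29a and without sheep lactation or sheep cycle for miR-29c. Mouse lactation minus gestation ranged over -0.03 to 1.03, 0.49 to 1.47 and -0.40 to 0.21, with the lowest values without lactation day 10 and the highest without lactation day 2; miR-29c also turned sign without gestation day 10 (0.17). A stage class left with 1 array was assumed to vary like the others.

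Counts of miRNAs called ranged from 14 (authors' table) to 95 (floor 4 times lower) against 46 for sheep minus mouse, and from 0 to 29 against 8 for lactation minus not pregnant. The 46 split into 18 higher and 28 lower, against 69 and 18 without scaling, 9 and 51 with normexp, and 3 and 11 in the authors' table. Signal over background limits the shorter miR-29b probe and the star strands.

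Of the 27 other differences between arrays of a species (9 pairs of arrays, 3 members), 19 turned sign with at least 1 of the 4 other scalings, which were tried after seeing the data. The authors' table turned sheep gestation day 14 minus cycle (-0.48, -0.30 and -0.37 for miR-29a, miR-29b and miR-29c, all miRNAs -0.20). It also turned sheep lactation minus day 64 of miR-29a (0.12) and miR-29b (0.16), and lactation minus cycle of miR-29b (0.22). In mouse it turned gestation day 10 minus virgin of miR-29a (-0.82) and miR-29c (-0.84), with all miRNAs at -0.36. It turned gestation day 17 minus 10 of miR-29b (-1.10, all miRNAs -0.34) and lactation day 2 minus gestation day 17 of miR-29c (0.32). Last, it turned lactation day 10 minus virgin of miR-29a (-0.20, all miRNAs -0.21). The percentile over all miRNAs turned day 14 minus cycle (-0.10, -0.05 and -0.11, all miRNAs -0.21). For miR-29b it turned lactation minus cycle (0.35), mouse gestation day 10 minus virgin (0.04) and day 17 minus 10 (-0.28). Quantile normalization turned sheep day 64 minus 14 (-0.16) and lactation minus cycle (-0.39) of miR-29a. Without scaling, sheep lactation minus day 64 of miR-29c turned (-0.79, all miRNAs -0.79). Sheep lactation minus cycle turned for miR-29a (-1.29) and miR-29c (-0.23), with all miRNAs at -1.22. In mouse, gestation day 10 minus virgin of miR-29b turned (0.14, all miRNAs 0.14). Lactation day 2 minus gestation day 17 turned for miR-29a (-1) and miR-29b (-0.85), with all miRNAs at -0.84. Also turned were lactation day 10 minus 2 of miR-29c (-0.08) and lactation day 10 minus virgin of miR-29a (-0.48, all miRNAs -0.35).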
